A study of Mus musculus with 6 samples.

Results

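Neutrophil nuclei were sought in single-nucleus RNA-seq of mouse tibial periosteum, at steady state and during the first week after fracture. A nucleus was counted as a neutrophil when the UMIs (unique molecular identifiers, each standing for 1 captured transcript) of Csf3r, Cxcr2, S100a8, S100a9 and Nlrp12 summed to 3 or more and to at least 0.2% of its UMIs. Such a nucleus also had to hold under 4 UMIs of the macrophage genes Mrc1, Hpgds, Fcrls and F13a1, under 4 of the collagen genes Col1a2 and Col3a1, and under 1% of UMIs from the myofibre genes Ttn, Neb, Ckm and Acta1. Of 8073 nuclei that passed the quality limits in 6 libraries, 193 met this rule, and 188 of them came from 1 library, the second replicate of day 3.

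All mice were C57BL6, 12 weeks old, with males and females mixed. Uninjured periosteum (2 libraries, each pooled from 4 mice) was scraped after the marrow had been flushed out. Injured periosteum was taken with the hematoma or callus at day 3 (2 libraries), day 5 (1 library) and day 7 (1 library) after an open, non-stabilized tibial fracture, with 4 to 9 mice per pool. Because mice were pooled, a library is the replicate, and the spread between mice was not measured.

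Neutrophils are short-lived phagocytes made in the bone marrow. Their precursors fill granules in sequence, first with Mpo and Elane, then with Ltf, Ngp, Camp and Lcn2, and last with Mmp9, while they stop dividing. Mature cells leave the marrow and reach injured tissue early, guided by CXC chemokines that bind Cxcr2, and there they engulf debris, produce oxidants and release IL-1.

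The libraries held between 1499281 and 29796296 UMIs and kept between 644 and 2423 nuclei, with median depths of 1283 to 4241 UMIs per nucleus. Day 3 replicate 1 kept 753 nuclei at a median of 2374 UMIs, and day 3 replicate 2 kept 1720 at a median of 4241. At the 5th percentile the depth was 1237 UMIs in replicate 1 and 633 in replicate 2, where neutrophils had a median of 1471. Whether shallow neutrophils were missed in replicate 1 was not tested. No neutrophil was marked as a doublet by Scrublet, which marked 5 of those 1720 nuclei. No neutrophil barcode occurred in a second library, although 18 barcodes were found in more than 1 library.

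The replicates of day 3 differed in their share of neutrophils. Replicate 1 held 0 of 753 nuclei, which by counting alone allows a share of up to 0.398% (3 counts of the total). Replicate 2 held 188 of 1720, or 10.9% (95% Clopper-Pearson interval 9.49 to 12.5, counting error only). Myofibre nuclei made up 346 of the 753 nuclei and 304 of the 1720. Without them, replicate 1 held 0 of 407, which allows up to 0.737%, and replicate 2 held 188 of 1416, or 13.3%. Uninjured replicate 1 held 0 of 644 nuclei, which allows up to 0.466%, and uninjured replicate 2 held 4 of 1182, or 0.338% (0.0923 to 0.864). Day 5 held 1 of 2423 nuclei, or 0.0413% (0.00104 to 0.230), and day 7 held 0 of 1351, which allows up to 0.222%. The mean of day 3 was 5.47% ± 7.73 (SD, n = 2) and that of uninjured periosteum 0.169% ± 0.239 (SD, n = 2), so the groups overlapped, since day 3 replicate 1 lay below uninjured replicate 2. No test was made on this share because the rule reads the marker counts, and with 2 libraries against 2 an exact permutation test cannot pass 0.05, as 2 of the 6 assignments are always as extreme as the most extreme one. Macrophages held 4 or more UMIs of the macrophage genes, under 3 of the neutrophil genes and passed the same collagen and myofibre limits. They made up 9.69% of day 3 replicate 1, at a median of 1795 UMIs, and 12.0% of replicate 2, at a median of 5159. Antigen-presenting nuclei, with 3 or more UMIs of Ccr2, Cd74 and the class II genes H2-Aa, H2-Ab1 and H2-Eb1 and under 3 of the neutrophil genes, numbered 0 in replicate 1 and 56 in replicate 2.

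**Figure D1:**
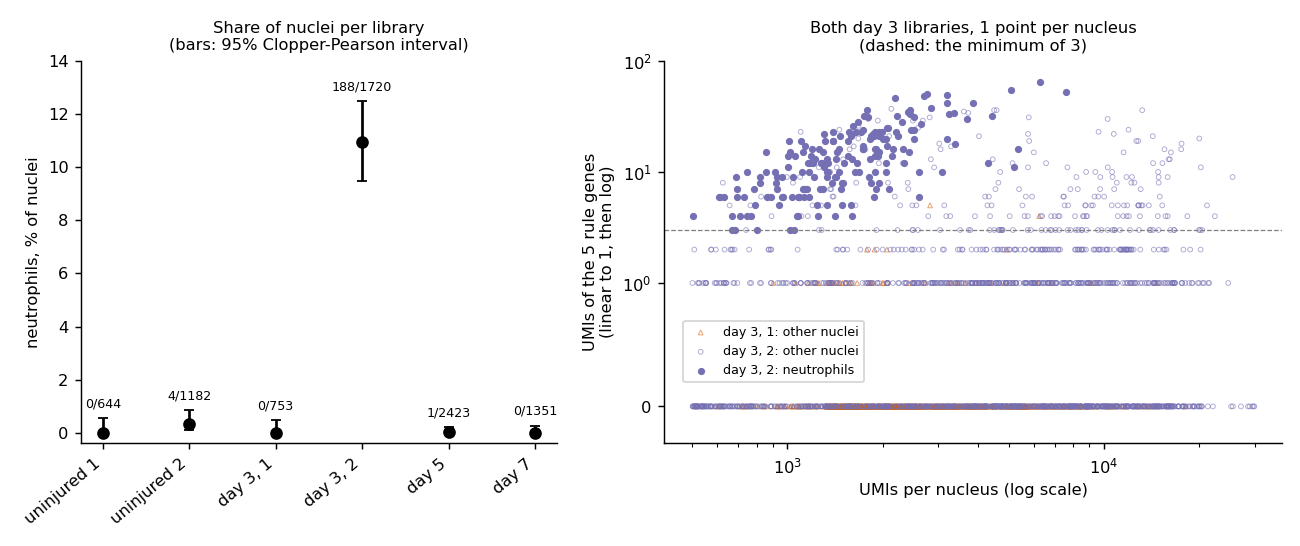
Left, neutrophils as a percentage of the nuclei kept in each of the 6 libraries, with 95% Clopper-Pearson intervals and the counts above each point. Right, UMIs of the 5 rule genes (y axis, linear up to 1 and then logarithmic) against all UMIs of the nucleus (x axis, logarithmic) in both day 3 libraries. Filled points are the 188 neutrophils of replicate 2, which stand mostly at low depth and reach 65 marker UMIs, while no nucleus of replicate 1 held more than 5 marker UMIs.

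In day 3 replicate 2, 5 neutrophils held exactly 3 marker UMIs and 33 nuclei just outside held 2, against a median of 12 and a maximum of 65 among the neutrophils. A further 75 nuclei of that library passed the marker minimum and were dropped by the other limits, 65 of them for collagen UMIs, 15 for macrophage UMIs and 1 for myofibre UMIs. These 75 nuclei had a median of 12 marker UMIs and 1799 UMIs in all, and the median of marker UMIs was the same as in the neutrophils. In day 3 replicate 1, 706 of 753 nuclei held no marker UMI and none passed both marker minimums.

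The nuclei were chosen by the UMI counts of the 5 marker genes and of the 10 macrophage, collagen and myofibre genes, so the levels of these genes are given as a description. Csf3r, the receptor for granulocyte colony-stimulating factor (chr4:126024550-126044440 in GRCm38), had a UMI in 181 of the 188 nuclei. Cxcr2, the receptor for CXC chemokines, had one in 97, and Nlrp12, an intracellular sensor, in 78. S100a8 and S100a9, which encode the subunits of calprotectin and lie near each other on chromosome 3, had one in 83 and in 106 nuclei. Only 4 neutrophils were chosen through the S100 genes alone, and 67 held no S100 UMI. After every nucleus was thinned to 500 UMIs, Csf3r was found in 86.2% of the neutrophils, 13.9% of the stromal nuclei (4 or more Col1a2 and Col3a1 UMIs) and 3.38% of the macrophages, whose definition limits it. The stromal class includes nuclei that passed the marker minimum and were dropped for collagen UMIs, and their part in the 13.9% was not tested. The median depths before thinning were 1471 UMIs in neutrophils, 5213 in stromal nuclei and 5159 in macrophages.

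The label was checked against 12 neutrophil genes the rule did not use. Levels are UMIs of a gene per 1000000 UMIs (CPM) of the summed nuclei of day 3 replicate 2, with 322494 UMIs from the neutrophils, 1280475 from 207 macrophages and 226496 from 56 antigen-presenting nuclei. A gene was compared when it had at least 10 UMIs in the neutrophils, or in the other population the level that 10 UMIs would give, and a difference of at least 4-fold was counted. This is 1 library, so there is no replicate check and no p-value, and intervals are 95% counting intervals that cover counting error only. Against macrophages, 10 of the 11 markers compared were at least 4-fold higher in neutrophils and none was 4-fold lower, with a median log2 difference of 4.50 against -0.01 over all 6430 genes compared. Across those 6430 genes, 7.82% were at least 4-fold higher in neutrophils and 6.75% at least 4-fold lower. Against antigen-presenting nuclei, all 11 markers compared were at least 4-fold higher, where 8.52% of 6443 genes were higher and 7.93% lower. These markers shared the nuclei that the rule chose, so they describe the label and are no separate test of it.

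Hdc, the enzyme that makes histamine, had 173 UMIs in neutrophils and 4 in macrophages, a log2 difference of 7.42 (interval 6.04 to 9.32). Il1r2, the decoy receptor that binds IL-1 without signalling, stood at 884 CPM in neutrophils, 10.9 in macrophages and 212 in antigen-presenting nuclei, 80.8-fold and 4.17-fold higher. Padi4, which citrullinates histones during the release of chromatin traps, stood at 229 CPM in neutrophils against 10.2 in macrophages. Retnlg, a resistin-like gene of granulocytes, had 46 UMIs in neutrophils and none in macrophages, at least 60.9-fold higher with the limit of 3 UMIs over the macrophages. After thinning, Retnlg was found in 22.7% of 22 nuclei rich in granule genes, described further on, and 2.41% of the 166 others. Of 8 markers compared between these sets, Retnlg and Wfdc21 were at least 4-fold higher in the 22 nuclei, and Il1r2 and Clec4d at least 4-fold lower. Over all 1784 genes compared there, 9.75% were higher and 5.61% lower. Clec4d, a lectin receptor, was the exception against macrophages, with 512 against 172 CPM. Ly6g, the surface antigen widely used to sort mouse neutrophils, had 2 UMIs in 188 nuclei and was too low to compare.

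Many defining genes of other cell types were at 0, and others were found at low counts. Cd3e, Cd3g, Skap1 and Nkg7 of T and NK cells, Cd79a, Cd79b and Pax5 of B cells, Cpa3, Cma1 and Mcpt4 of mast cells, Epx and Prg2 of eosinophils, Gp9, Itga2b and Gp1bb of platelets and Slc4a1 of erythroid cells had no UMI in the 188 neutrophils. Bank1, a B cell adaptor, had 32 UMIs in 14 neutrophils. The B cell list summed to 109 CPM against 81.2 in macrophages and 177 in antigen-presenting nuclei. Kit, the stem cell factor receptor of mast cells and progenitors, had 11 UMIs in 10 neutrophils. The mast cell list summed to 37.2 CPM against 2.34 in macrophages and 119 in antigen-presenting nuclei. Eosinophil genes summed to 18.6 CPM against 2.34 in macrophages and 4.42 in antigen-presenting nuclei, with 4 Siglecf and 2 Ccr3 UMIs. Erythroid genes summed to 34.1 CPM against 5.47 in macrophages and 13.2 in antigen-presenting nuclei, with 6 Hbb-bs UMIs. T and NK cell genes, at 12.4 against 132 CPM, and platelet genes, at 37.2 against 198, summed to less than in macrophages. Of the 8 macrophage markers compared, C1qb, C1qc, Cd163 and Mertk were at least 4-fold lower than in macrophages and none was higher, and the list summed to 617 CPM in neutrophils against 2791. Cd163 had no UMI in neutrophils, and Mertk stood at 74.4 CPM against 843. Stromal genes did reach the neutrophils: Col1a1, Col5a1, Fn1, Pdgfra and Postn summed to 1398 CPM against 1021 in macrophages and 755 in antigen-presenting nuclei, with 707 CPM of Col1a1. Pdgfra was the stromal gene counted as 4-fold higher than in macrophages, with 15 UMIs against 12. The 6 myofibre genes not used by the rule summed to 273 CPM in neutrophils and 160 in macrophages, with Myh1 at least 4-fold higher. The 4 endothelial genes summed to 127 against 72.6 CPM and the 5 osteoclast genes to 89.9 against 98.4 CPM, with none past 4-fold. Of the remaining immune and platelet genes compared, Ccr2, Il7r, Skap1 and Pf4 were at least 4-fold lower than in macrophages and Kit was higher. The part of RNA from other cells in the neutrophil profile was not tested.

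**Figure D2:**
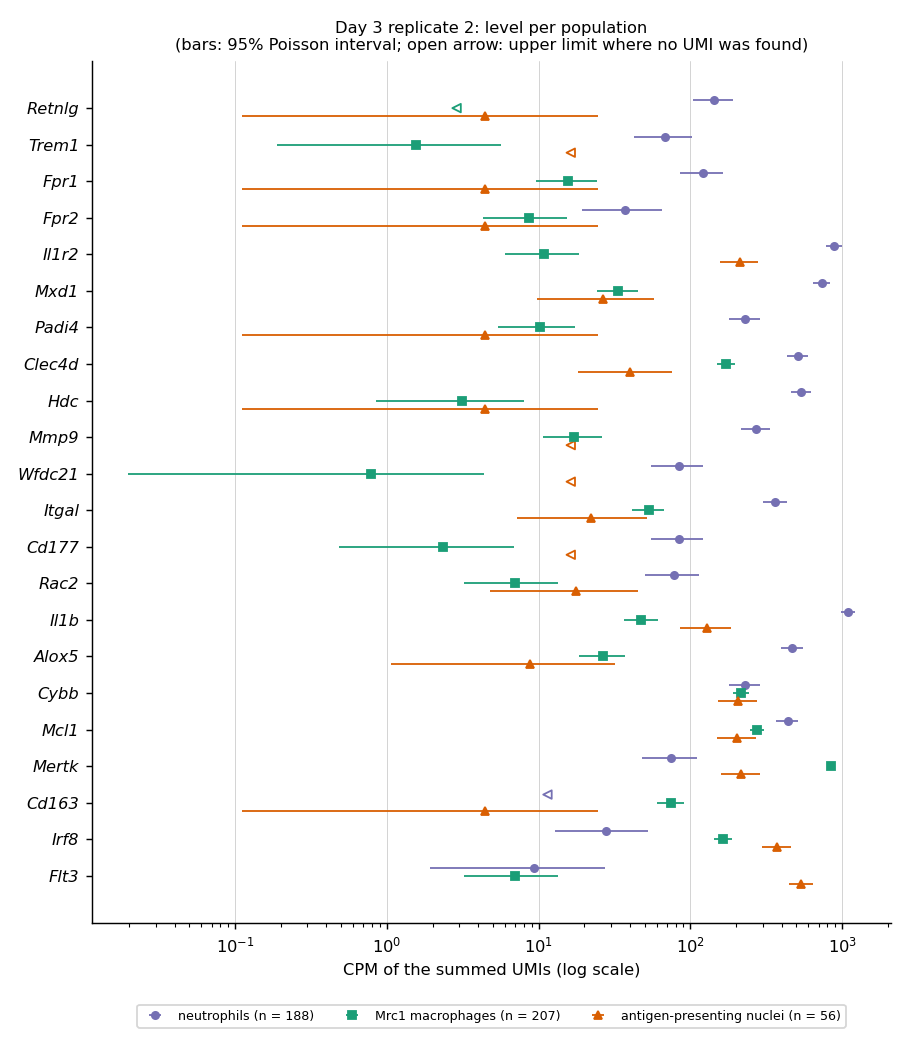
Levels (CPM of summed UMIs, logarithmic x axis) of 22 genes in 188 neutrophils, 207 Mrc1 macrophages and 56 antigen-presenting nuclei of day 3 replicate 2, with 95% Poisson intervals. An open arrow marks the upper limit of a gene without a UMI. The upper genes, from Retnlg to Alox5, stand to the right in neutrophils. Cybb lies at about the same summed level in all 3 populations, although it was uneven among the neutrophils. In neutrophils, Mertk and Irf8 stand to the left of both other populations, Cd163 to the left of macrophages and Flt3 to the left of antigen-presenting nuclei.

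Genes for leaving the blood and sensing attractants were often higher than in macrophages. Of 13 receptors and adhesion genes compared, 7 were at least 4-fold higher in neutrophils than in macrophages and none was 4-fold lower. Itgal, an integrin of firm adhesion, stood at 363 against 53.1 CPM, 6.83-fold higher, and Cd177, a neutrophil surface antigen, had 27 UMIs against 3, a log2 difference of 5.16 (3.46 to 7.52). Fpr1 and Fpr2, receptors for formylated peptides of bacteria and mitochondria, were 7.74-fold and 4.33-fold higher, with intervals on the log2 scale of 2.14 to 3.81 and 0.81 to 3.44. C5ar1, the receptor for complement C5a, was within its counting interval of the macrophage level, with 109 against 116 CPM, and so was the retention receptor Cxcr4, with 68.2 against 92.2 CPM.

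Clec4e, Trem1 and Pilra were at least 4-fold higher than in macrophages among 9 recognition genes compared, while Tlr4 stood at 264 against 232 CPM. Rac2, a GTPase that activates the NADPH oxidase, stood at 77.5 against 7.03 CPM. The membrane subunits of the oxidase were not past 4-fold, with Cybb at 229 against 215 CPM and Cyba at 186 against 216 CPM.

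Il1b, which encodes interleukin-1 beta, was the cytokine gene past 4-fold among the 3 compared. It had 352 UMIs in the neutrophils, in 103 of 188 nuclei, and 61 in the macrophages, a log2 difference of 4.52 (4.12 to 4.93), and it was also 8.53-fold higher than in antigen-presenting nuclei. In nuclei thinned to 500 UMIs, an Il1b UMI was found in 30.3% of neutrophils, 1.93% of macrophages and 8.93% of antigen-presenting nuclei. Il1a and Ccl3 had no UMI in neutrophils, and Tnf, Osm, Il1rn, Ccl4, Cxcl2 and Cxcl3 had between 2 and 7 each, too few to compare. Among 5 genes of lipid mediator synthesis, Alox5, the enzyme that starts leukotriene synthesis, was 17.6-fold higher than in macrophages, and Pla2g7 stood at 955 against 284 CPM.

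Of 13 transcription factors compared, Gfi1 was at least 4-fold higher than in macrophages and Irf8, which directs monocyte fate, was 5.88-fold lower. Over all genes compared, 7.82% were at least 4-fold higher and 6.75% at least 4-fold lower. Gfi1 was also at least 4-fold higher in the 22 nuclei rich in granule genes than in the 166 other neutrophils. Creb5 was at least 4-fold lower there, among 8 transcription factors compared. After thinning, Gfi1 was found in 2 of those 22 nuclei and in none of the 166 others. Spi1, which encodes the myeloid factor PU.1, stood at 577 against 304 CPM in macrophages. Of 7 survival and growth factor genes compared, Bcl2 was lower, with 3 UMIs against 84 (log2 difference -2.82, interval -5.12 to -1.22), whereas Mcl1, the survival gene on which neutrophils depend, stood at 437 against 276 CPM. None of 6 interferon-response genes compared passed 4-fold in either direction. Of 5 proliferation genes compared, Hmmr was at least 4-fold higher than in macrophages.

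The 12 genes with the largest difference above macrophages and at least 100 CPM were Ltf, 4732465J04Rik, Scrg1, Ngp, Dennd3, Abca13, Il1f9, Mirt1, Ankrd22, Hdc, Aff2 and Mgll. Their log2 differences ran from 7.20 to 8.88, and each had between 1 and 5 UMIs in the macrophages, so the intervals are wide. Mirt1, a long noncoding RNA, was the most widely found of them, with a UMI in 110 of 188 nuclei, and 4732465J04Rik had one in 62. Ltf and Ngp, in contrast, rested on 23 and 19 nuclei, and without the 22 nuclei rich in granule genes that are described further on, their log2 differences were 3.84 and 1.67, the latter under 4-fold. Genes without a macrophage UMI were scored as if they had 3, so a gene such as Retnlg, with none, ranks below genes with 1. Il1f9, which encodes the IL-1 family cytokine IL-36 gamma, had a UMI in 36 nuclei.

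Among the genes with the largest difference below macrophages were Ptpro, Cacna1d, Ednrb, Rgl1, Dab2, Gm5086 and P2ry6, with 1 to 33 UMIs in the neutrophils and 149 to 2498 in the macrophages. Dab2, an endocytic adaptor of tissue macrophages, had 33 UMIs in the neutrophils and 2498 in the macrophages. Cacna1d, a calcium channel subunit, had 14 against 1429. P2ry6, a nucleotide receptor that triggers phagocytosis, had 4 against 271. When neutrophils were chosen by 2 or more UMIs of Csf3r, Cxcr2 and Nlrp12 alone, Ptpro, P2ry6 and Gm5086 stood at -1.85, -1.47 and -1.12 on the log2 scale, under 4-fold.

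Against antigen-presenting nuclei, the 12 leading genes were Pip5k1b, Ltf, Ngp, Camp, Hdc, Tmem154, Mctp2, Rnf144a, AC139671.1, Alox5, Slc40a1 and Padi4, with 1 or 2 UMIs each in the antigen-presenting nuclei. Pip5k1b, a phosphoinositide kinase, had 243 UMIs in 85 neutrophils against 1, a log2 difference of 7.42 (4.92 to 12.7). Slc40a1, the iron exporter ferroportin, had 149 UMIs against 2. Ltf, Ngp and Camp again rested on the nuclei rich in granule genes: without those 22, Ltf stood at 2.34 on the log2 scale, and Ngp and Camp both at 0.76, under 4-fold. The 8 genes with the largest difference below were Gm15987, Adam23, Ciita, Cyp7b1, Dpp4, Htr7, Dscam and Ptpro, and Ciita, the master activator of class II genes, had 3 UMIs against 261. Flt3, the dendritic cell growth factor receptor, had 3 UMIs against 122 (log2 difference -5.86, interval -8.15 to -4.27), and Irf8 was 13.3-fold lower.

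Against antigen-presenting nuclei, Clec4d, Clec4e, Fcgr3, Trem1 and Pilra were at least 4-fold higher among 8 recognition genes compared, and Ccl6 was higher as well as Il1b among 3 cytokine genes compared. All 5 proliferation genes compared were at least 4-fold higher, with 1 to 7 UMIs each in the antigen-presenting nuclei. Summed over the 6 proliferation genes, 87 UMIs were in the 22 nuclei rich in granule genes and 37 in the 166 other neutrophils. After thinning to 500 UMIs, Top2a was found in 5.85% of neutrophils and 3.57% of antigen-presenting nuclei. Mki67 was found in 3.19% and 1.79%, and Cenpf in 0.532% and 0%. Hmmr, at 1.06% against 1.79%, and Kif11, at 0% against 1.79%, went the other way. The tertiary granule genes Mmp9 and Mmp25 were at least 4-fold higher in both comparisons, and Itgam and Slc11a1 were not. Mmp25 was also at least 4-fold higher in the nuclei rich in granule genes than in the other neutrophils, 1 of 3 tertiary granule genes compared there. After thinning it was found in 22.7% against 1.81% of these nuclei. Of the 6 primary granule genes, Mpo was compared and was higher in both comparisons on the UMIs of 1 nucleus.

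The neutrophils of day 3 replicate 2 were not uniform in their secondary granule genes. Summed over Ltf, Ngp, Camp, Lcn2, Mmp8 and Cebpe, 138 nuclei held no UMI, 23 held 1, 5 held 2, and 22 held 3 or more, up to 84. The 22 nuclei with 3 or more, a limit set after the counts were seen, are called granule-gene nuclei here, and the 166 others are called other neutrophils. Ltf encodes lactoferrin, Ngp a cystatin-like granule protein and Camp the antimicrobial peptide precursor cathelicidin, and all lie within 1 stretch of chromosome 9, at chr9:111019271-111042767, chr9:110419747-110423012 and chr9:109847379-109849617. Of all Ltf UMIs in neutrophils, 232 of 238 were in granule-gene nuclei, as were 205 of 207 Ngp UMIs and 185 of 187 Camp UMIs. Because these genes defined the set, that concentration is a description.

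The sequence just before each of these 3 genes is shown because the genes were found together in the same nuclei. The windows end at the base before the gene in GENCODE vM21 and come from RefSeq promoters in GRCm38.p6, read 5′ to 3′ on the coding strand. They are chr9:111019042-111019270 (+) for Ltf, chr9:110419558-110419746 (+) for Ngp and chr9:109849618-109849706 (-) for Camp. Capitals mark matches on either strand to TTNNGNAA, the core shared by binding sites of the C/EBP factors, a family whose member C/EBP epsilon is needed for secondary granules.
Ltf: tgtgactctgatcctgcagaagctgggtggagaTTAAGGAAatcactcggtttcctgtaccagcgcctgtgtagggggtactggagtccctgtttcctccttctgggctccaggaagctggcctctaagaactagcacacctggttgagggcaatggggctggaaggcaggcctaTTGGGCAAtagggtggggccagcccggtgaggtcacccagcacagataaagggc
Ngp: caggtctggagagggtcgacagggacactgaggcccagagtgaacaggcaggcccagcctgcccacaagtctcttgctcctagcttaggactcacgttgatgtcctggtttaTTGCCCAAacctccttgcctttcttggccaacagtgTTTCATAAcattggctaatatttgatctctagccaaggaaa
Camp: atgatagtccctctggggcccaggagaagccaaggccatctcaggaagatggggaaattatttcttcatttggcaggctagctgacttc
The Ltf window of 229 bases held 2 matches, as 9.86% of 32851 promoter windows of that length did with 2 or more. The Ngp window of 189 bases also held 2, as did 7.80% of windows of that length, and the Camp window of 89 bases held none, where 16.7% held at least 1. A match describes letters in the window and does not show binding.

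Of 1784 genes compared, 174 (9.75%) were at least 4-fold higher in the granule-gene nuclei and 100 (5.61%) at least 4-fold lower. Chil3, a chitinase-like protein of granulocyte precursors, had 74 UMIs in 12 of 22 granule-gene nuclei and 6 UMIs in 6 of 166 others, a log2 difference of 5.92 (4.73 to 7.41). Adpgk, an ADP-dependent glucokinase, had 85 UMIs in 16 granule-gene nuclei against 4. Cpa6, a carboxypeptidase, had 47 UMIs in 9 nuclei against 1. Abca13, a lipid transporter, had 128 UMIs in 15 nuclei against 33, and Cd177 had 24 UMIs in 13 nuclei against 3. Cybb of the oxidase stood at 1042 CPM in granule-gene nuclei and 63.5 in the others, and Lta4h, which makes leukotriene B4, at 658 against 37.3 CPM.

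Proliferation genes were found with the granule genes. Of the 6 proliferation genes, 4 were compared, and Mki67, Top2a, Cenpf and Kif11 were all at least 4-fold higher, with a median log2 difference of 3.84 against 0.12 over the 1784 genes. Top2a, the topoisomerase that untangles replicated DNA, had 35 UMIs in 9 of 22 granule-gene nuclei and 15 UMIs in 14 of 166 others. At least 2 proliferation UMIs were held by 8 of 22 granule-gene nuclei and by 4 of 166 others. The rule for naming genes also gave Cenpe, Cenpa and Ncapg, which act in chromosome segregation, and Gen1, which resolves DNA junctions, with between 10 and 25 UMIs each in granule-gene nuclei and 1 or 2 in the others. Igsf5, Prom1 and Inhba completed the list with 11 to 20 UMIs each, and Nrg2 had 16 UMIs in a single nucleus. Depth moved with this split, since the granule-gene nuclei had a median of 1892 UMIs and the others 1428.5. In nuclei thinned to 500 UMIs, a Top2a UMI was found in 27.3% of granule-gene nuclei and 3.01% of the others, and a Mki67 UMI in 9.09% and 2.41%. No granule-gene nucleus then held a UMI of Cenpf, Kif11, Hmmr or Ccnb1, and at most 2 of the 166 others did for any of these, so at equal depth the difference rests on few UMIs of Top2a and Mki67.

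Il1b and several receptors were lower in granule-gene nuclei. Il1b had 5 UMIs in 2 of 22 granule-gene nuclei and 347 UMIs in 101 of 166 others, a log2 difference of -3.83 (-5.46 to -2.59), and after thinning it was found in 4.55% against 33.7% of nuclei. Il1r2 had 9 UMIs against 276, Clec4d 3 against 162, Ccr1 3 against 119 and Pla2g7 8 against 300, and all 4 were at least 4-fold lower by level. The 8 genes named by the rule were Il13ra1, Txnip, Prr5l, Cd300a, Emilin2, Stk40, Il1b and Gm47719, and each of these except Cd300a and Il1b had 1 UMI in all granule-gene nuclei. Cd300a, an inhibitory receptor, had 2 UMIs against 168. With 1 or more granule UMIs in place of 3, Il1b stood at -1.06 on the log2 scale, and 7 of the 8 genes, all but Txnip, were under 4-fold, from -1.33 to -0.34. Oasl2 was the interferon-response gene compared and stood at 110 against 474 CPM.

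The rule genes also ran unevenly across this split, given as values only. Csf3r stood at 1480 CPM in granule-gene nuclei and 6251 in the others, and Nlrp12 at 73.1 against 624. S100a8 went the other way, with 2175 against 433 CPM, and so did S100a9, with 4898 against 1158 CPM. Of the 22 granule-gene nuclei, 17 had a Csf3r UMI.

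**Figure D3:**
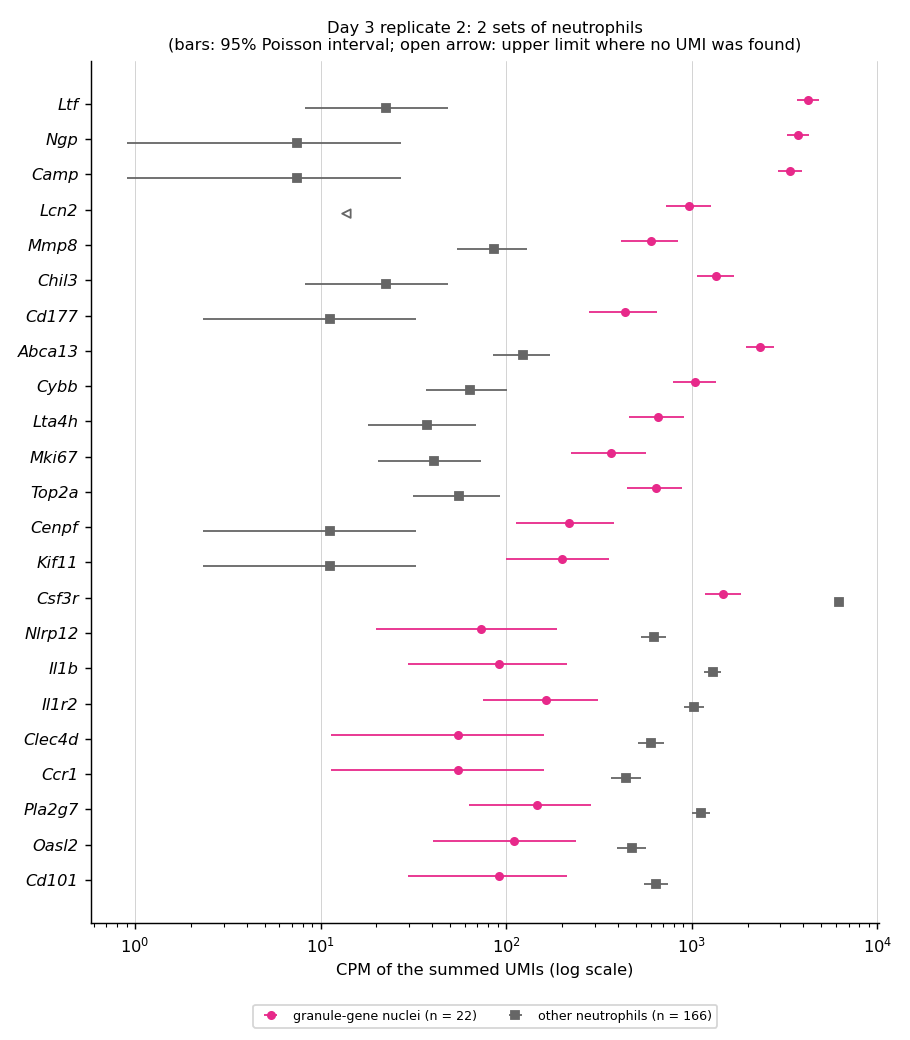
Levels (CPM of summed UMIs, logarithmic x axis) of 23 genes in 22 granule-gene nuclei and 166 other neutrophils of day 3 replicate 2, with 95% Poisson intervals. An open arrow marks the upper limit of a gene without a UMI. Ltf, Ngp, Camp, Lcn2 and Mmp8 defined the sets, the genes from Chil3 to Kif11 stand to the right in granule-gene nuclei, and those from Csf3r to Cd101 stand to the left.

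The earliest granule genes were confined to 1 nucleus among the 188 for Mpo and Elane. That nucleus, the deepest of the neutrophils with 7611 UMIs, held 46 Mpo, 8 Elane and 6 Prtn3 UMIs, along with 9 secondary granule UMIs, 8 Top2a and 4 Mki67 UMIs and 8 Csf3r UMIs. Prtn3, another serine protease of the first granules, had 2 more UMIs in 1 other nucleus.

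The few neutrophils outside day 3 replicate 2 can be described one by one. In uninjured replicate 2, the nucleus with most UMIs (2596) held 30 Ltf, 15 Chil3 and 8 Abca13 UMIs with 1 Csf3r UMI, and another, of 1664 UMIs, held 8 Ltf, 5 Ngp, 5 Camp and 3 Chil3 UMIs with 1 Csf3r UMI. The nucleus of 1577 UMIs held 10 Csf3r UMIs and 1 secondary granule UMI, and the last, of 670 UMIs, held 3 marker UMIs, 2 Mmp8 and 3 Retnlg UMIs. So 2 of these 4 nuclei met the limit of 3 secondary granule UMIs, as did 22 of 188 at day 3, and none of the 4 held an Il1b UMI. The single day 5 nucleus had 3 Csf3r UMIs, no S100 UMI, 1 Il1b UMI and 4 Ms4a6d UMIs, a gene common to monocytes and macrophages, so it rests on the minimum of the rule.

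The genes that attract neutrophils were asked about in all other nuclei, leaving out neutrophils and myofibre nuclei. Counts were summed per library and compared between 2 day 3 and 2 uninjured libraries with edgeR's quasi-likelihood test, a fit chosen after the data were seen. Of 9 attractant genes listed, 4 were abundant enough to test and 3 of them were higher at day 3, where 2.41% of 12785 genes tested were higher and 5.52% lower. The median log2 difference of the 4 genes was 4.27, against 0.02 over all genes tested. Cxcl5, a Cxcr2 ligand, had 0 and 0.756 CPM in the uninjured libraries, 67.5 and 73.0 CPM at day 3, 3.05 at day 5 and 3.84 at day 7. Both day 3 libraries thus lay far above all the others, including replicate 1, in which no neutrophil was found (log2 difference 6.84 ± 0.64 SE, adjusted p = 0.0168). In stromal nuclei alone, Cxcl5 stood at 114 CPM in day 3 replicate 1 and 113 in replicate 2. The summed nuclei differed in make-up between the groups. Stromal nuclei numbered 28 of 485 and 293 of 924 in the uninjured libraries, and 120 of 407 and 627 of 1228 at day 3. Macrophages numbered 0 and 43 against 73 and 207. Whether any attractant gene changed per nucleus or with this make-up was not tested.

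Cxcl1, another Cxcr2 ligand, had 0 and 1.26 CPM in the uninjured libraries and 10.9 and 13.7 at day 3, so the groups did not overlap (log2 difference 3.67 ± 0.81, edgeR adjusted p = 0.0488). Leaving out any of the 4 libraries ended that call, with adjusted p from 0.0675 to 0.249, as did keeping the myofibre nuclei (0.0877). Il1b in nuclei other than neutrophils had 0 and 1.76 CPM in the uninjured libraries and 17.3 and 61.4 at day 3, with no overlap (log2 difference 4.86 ± 0.91, edgeR adjusted p = 0.0356). That call was lost without uninjured replicate 1 (adjusted p = 0.0572), without uninjured replicate 2 (0.0559), without day 3 replicate 2 (0.141) and with the myofibre nuclei kept (0.0724). In day 3 replicate 2, 257 of the 440 Il1b UMIs were in stromal nuclei, the class that also held nuclei with neutrophil markers that the collagen limit had dropped, and their part in the Il1b level was not tested. Cxcl12, the ligand of Cxcr4, had 61.7 and 69.3 CPM in the uninjured libraries and 22.8 and 62.2 at day 3, without passing the test (adjusted p = 0.415). Csf3, which encodes granulocyte colony-stimulating factor, had at most 4 UMIs in any library. Cxcl2 had 3.65 and 14.9 CPM in the day 3 libraries and at most 0.252 CPM in the uninjured ones, and was not tested.

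**Figure D4:**
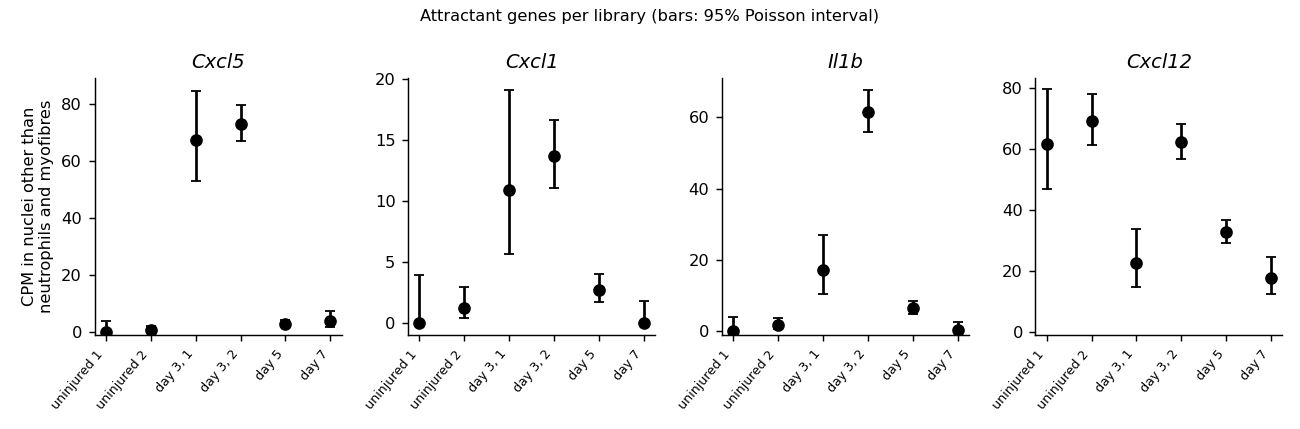
Levels (CPM of summed UMIs, linear y axis) of Cxcl5, Cxcl1, Il1b and Cxcl12 in nuclei other than neutrophils and myofibre nuclei, 1 point per library with its 95% Poisson interval. Cxcl5 stands at 67.5 and 73.0 CPM in the day 3 libraries and at most 3.84 CPM elsewhere, while the Cxcl12 points of day 3 lie apart from each other.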

How the data were processed

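Nuclei of freshly dissected periosteum were sorted and profiled with 10x Genomics 3′ chemistry. The deposited files hold raw UMI counts per gene and barcode, which the authors made with Cell Ranger (6.0.0 for uninjured replicate 1, day 5 and day 7, and 7.1.0 for the others, per the file headers), without normalization. The submitters' notes name mm10, and the gene identifiers are mouse. Reads in introns and exons were counted. Removal of ambient RNA is not given in the sources used here, and free RNA was not subtracted. The authors' limits on genes, mitochondrial and ribosomal UMIs were repeated: 200 to 5000 genes, under 2% mitochondrial and under 1.5% ribosomal UMIs, which kept 8073 of 13551 barcodes. The paper also took out contaminating myogenic cells. That step was not repeated, so myofibre nuclei are among the 8073. Expression used the 30406 genes listed for every library.

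The members and gene lists were chosen with earlier results of these data known. UMIs were summed over nuclei per population and divided by their total (CPM). Models across libraries within neutrophils, and against macrophages, had been planned with edgeR, for libraries with at least 10 neutrophils. 1 library met that, so differences of at least 4-fold are described there without a test. Genes named are the 12 highest and 8 lowest with at least 100 CPM in the higher population, without the rule genes. For a population without a UMI, 3 UMIs over the population were used. The attractant genes were tested with edgeR 4.0.16 (filterByExpr, TMM, glmQLFit, Benjamini-Hochberg over all genes tested) in R 4.3.3, with DESeq2 1.42.0 as an alternative. p-values measure the spread between pooled libraries. Intervals are exact (Clopper-Pearson, Poisson or conditional binomial, 95%) and cover counting error only. Scripts were tested on simulated data. Python 3.11.15 was used. Values of a few genes that the rule or the lists name are not reported here.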

Additional observations from a re-analysis of the deposited data

Results flagged for a closer look

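In day 3 replicate 2, 80 barcodes that failed the quality limits, and so entered no comparison, met the neutrophil rule in every other respect, against at most 1 in an uninjured library. They are listed here because they show neutrophil markers in barcodes not analysed above and more of them than in the control libraries. The ribosomal limit left out 65 of the 80 and the mitochondrial limit 23. They made up 2.67% of the 2992 barcodes of that library outside the limits, and day 3 replicate 1 had 1 such barcode in all, without the markers.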

How the results depend on the processing

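The share in day 3 replicate 2 was 12.7% with Csf3r, Cxcr2 and Nlrp12 alone at 2 or more UMIs, 12.9% after thinning to 500 UMIs with 1 or more marker UMIs, 6.17% with looser quality limits and 13.3% without myofibre nuclei in the denominator, and stayed within its interval with a marker minimum of 5 or without doublets. The other libraries then held 0% to 0.454% by the 3 genes and 0.466% to 1.20% after thinning, with 3 and 8 nuclei of day 3 replicate 1. The mean of day 3 minus that of uninjured periosteum, 5.30 percentage points, ran from -0.169 (without day 3 replicate 2, a reversal) to 10.8 when 1 library was left out.

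Without a filter on low counts, genes at least 4-fold apart numbered 1047 higher and 677 lower against macrophages, and 820 lower against antigen-presenting nuclei. After thinning to 500 UMIs, where fewer genes reach 10 UMIs, they numbered 293 and 288 against macrophages, 194 higher against antigen-presenting nuclei, and 16 and 8 between granule-gene nuclei and the others. Choosing nuclei by 2 or more UMIs of Csf3r, Cxcr2 and Nlrp12 alone left 134 genes lower than in macrophages, and setting the granule minimum at 1 UMI left 46 lower. The cause was not tested. Of 340 values for 60 named differences, 268 stayed within the interval, 71 moved outside it and 1 reversed: Gm47719 stood at 0.69 (log2) after thinning, with 0 UMIs scored as 3. Under 4-fold or reversed were 28 values, for 20 of the 60: 15 after thinning, 14 of them with no UMI in 1 population, 7 with 1 or more granule UMIs, 3 with the 3 genes and 3 without granule-gene nuclei.

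In nuclei other than neutrophils, genes higher and lower at day 3 numbered 1212 and 1354 without a filter, 103 and 356 with myofibre nuclei kept, and 657 higher with DESeq2. With 1 library left out they ran from 56 to 523 higher and from 269 to 697 lower. Cxcl5 passed in all 7 alternatives, with adjusted p of at most 0.0314.

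No paired analysis was possible because the labels give no replicate numbers. For neutrophils, DESeq2, the fit without a library block, libraries left out and day 3 versus uninjured could not be run. Only 1 library held enough neutrophils for any of these fits. That library sets the limit: no statement on days after fracture rests on replicated neutrophils.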
